A study of Sus scrofa with 15 samples.

Results

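Nuclear tRNA genes were followed as separate entries of a gene count table from pig embryos made by somatic cell nuclear transfer (SCNT) and from the donor fibroblasts. Of 43294 features in the table, 448 carried the symbol of a nuclear tRNA gene, such as TRNAH-GUG for histidine with the anticodon GUG. An entry was a member when its value was above 0 in at least 1 of the 15 libraries, which held for 161 of the 448. The members were thus selected on the measured values themselves. The remaining 287 entries were listed at 0 in every library. The 22 members just inside this limit had a single read in a single library, at values of 0.765 to 1.63.

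Transfer RNAs carry amino acids to the ribosome and are transcribed by RNA polymerase III. The promoter holds a pair of short motifs inside the gene, the A box and the B box. Transcription stops at a run of T. Mammalian genomes hold many tRNA genes, often in identical copies and in clusters, and also many dispersed repeats that descend from tRNA genes. Mature tRNAs are short, structured and heavily modified, so a cDNA library of long RNA catches few of them.

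The libraries belonged to 5 groups of 3. PFF were primary pig fetal fibroblasts, the donor cells, and each embryo library came from a pool of 30 SCNT embryos, at the 4-cell stage (SCNT4c) or the 8-cell stage (SCNT8c). SCNT4c-KG embryos had been injected with KDM4A mRNA, which encodes an H3K9 demethylase, at 1000 ng/µl at 5 h after activation. They were kept in 0.1 µM GSK126, which blocks EZH2, the methyltransferase of H3K27, for 48 h. No library with KDM4A or GSK126 alone, or with a mock injection, was analysed here, so injection, KDM4A and GSK126 cannot be told apart. SCNT4c-TDG embryos came from donor fibroblasts carrying a doxycycline-inducible TDG gene, encoding thymine DNA glycosylase, and received doxycycline at 500 ng/ml from 40 to 72 h. These donor cells had also been through drug selection, and no library with doxycycline but without the TDG gene was analysed here, so these features of SCNT4c-TDG and its TDG gene cannot be told apart.

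Each library held 12354649 to 22868038 counted reads, with the lowest totals in SCNT4c-KG (12354649 to 15390472). All 10 fibroblast markers were above 10 in every PFF library, whereas the oocyte genes GDF9, BMP15 and MOS were at 0 in all embryo libraries and the summed oocyte and early embryo markers were 68490 to 89879 in SCNT4c, 26026 to 50675 in SCNT4c-KG, 10641 to 16783 in SCNT4c-TDG and 37146 to 45985 in SCNT8c. Most of this sum was ZP4, at 74784 in SCNT4c and 35050 in SCNT4c-KG, whereas ZP3 was higher in SCNT4c-KG, at 667 against 28.1 (log2 fold change 4.74, adjusted p = 0.000158 in limma). The summed fibroblast markers were 3726 to 4878 in SCNT4c and 2524 to 3775 in SCNT4c-KG, where VIM, THY1 and S100A4 were higher and COL1A2, COL3A1 and DCN lower. The summed cumulus markers were 1372 to 1781 in SCNT4c and 768 to 876 in SCNT4c-KG, mostly from INHBA (1412 and 673), while PTX3 and FOXL2 were at 0 in all embryo libraries and TNFAIP6 was at 79.3 and 137. The part of these oocyte, early embryo, fibroblast and cumulus markers in the tRNA values was not tested. KDM4A was 1429 to 1476 in SCNT4c-KG against 134 to 313 in SCNT4c, and TDG was 49857 to 59944 in SCNT4c-TDG against 939 to 2541 in SCNT4c. Some label names of SCNT4c-KG samples match columns of the table that stand for untreated embryos, so samples were assigned by their titles, and the SCNT4c libraries are called a, b and c because their numbers conflict.

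The histidine entries held 2034 of the 4024 reads on members (50.5%), so their sequence is shown first. All 7 TRNAH-GUG entries had the same 72 bases in Sscrofa11.1, printed here for gene961 (chr1:126541264-126541335, minus strand). In the first line the capitals mark the anticodon, and in the next they mark the match to the B box motif GTTCNANNC.
TRNAH-GUG, anticodon: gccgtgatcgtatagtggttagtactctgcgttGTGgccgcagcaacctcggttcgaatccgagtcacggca
TRNAH-GUG, B box: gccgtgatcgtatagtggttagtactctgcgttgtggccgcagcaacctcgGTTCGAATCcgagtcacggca

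The copies differed only in the DNA around them. The next lines give the 40 bases that follow each copy, with the first run of 4 T in capitals.
gene961, chr1:126541264-126541335, minus strand: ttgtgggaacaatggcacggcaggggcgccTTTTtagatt
gene962, chr1:126541996-126542067, plus strand: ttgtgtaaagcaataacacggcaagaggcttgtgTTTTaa
gene963, chr1:126543549-126543620, plus strand: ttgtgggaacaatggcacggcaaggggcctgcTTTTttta
gene1689, chr1:208060015-208060086, plus strand: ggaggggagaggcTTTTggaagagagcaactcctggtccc
gene8123, chr4:99287551-99287622, plus strand: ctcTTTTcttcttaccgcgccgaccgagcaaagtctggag
gene8131, chr4:99315449-99315520, minus strand: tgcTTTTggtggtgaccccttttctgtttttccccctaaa
gene13056, chr7:21233980-21234051, plus strand: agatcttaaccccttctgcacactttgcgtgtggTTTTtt

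All of these entries but gene8131 lay between genes, and gene8131 lay in an intron of LOC106510173 on the same strand. The annotation holds 9 copies of TRNAH-GUG, of which 2 lie on scaffolds outside the chromosomes and had no entry in the table. One of these, at bases 54362 to 54433 of its scaffold, was identical to gene8123 also in the 20 bases upstream and the 40 downstream, so the flank shown does not tell gene8123 from it. Only uniquely mapped reads were kept by the authors, so a read had to reach into the flanking DNA, or differ otherwise between copies, to be counted.

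Histidine tRNA entries had 591 or more reads in each SCNT4c-KG library and at most 16 in any other. Together they held 614, 790 and 591 reads in the 3 SCNT4c-KG libraries, 0, 0 and 2 in SCNT4c, 8, 11 and 16 in SCNT4c-TDG, 0, 0 and 2 in SCNT8c and 0 in all PFF libraries. The summed normalized count was 949 ± 92.7 (SD, n = 3) in SCNT4c-KG and 9.12 ± 2.84 in SCNT4c-TDG. No SCNT4c-KG library overlapped with a library of another group. TRNAH-GUG made up 79.4% to 85.2% of all reads on tRNA entries in the SCNT4c-KG libraries.

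The signal came from 5 of the 7 copies. The normalized counts in the SCNT4c-KG libraries were 361, 443 and 369 for gene961, 165, 171 and 138 for gene8123, and 178, 164 and 137 for gene13056. For gene8131 they were 167, 136 and 123, and for gene1689 they were 132, 88.8 and 75.5. In contrast, gene962 and gene963 were at 0 in all SCNT4c-KG libraries, where 3 reads would have a value of 3.81 to 4.90, although they lie close to gene961 and gene963 matches it at 20 of the first 20 bases downstream. Upstream, gene962 matched gene961 at 14 of 20 bases and gene963 at 13 of 20. Their few reads were in SCNT4c-TDG, at 0.836 in replicate 1 for gene962 and 3.06 in replicate 3 for gene963.

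**Figure D1:**
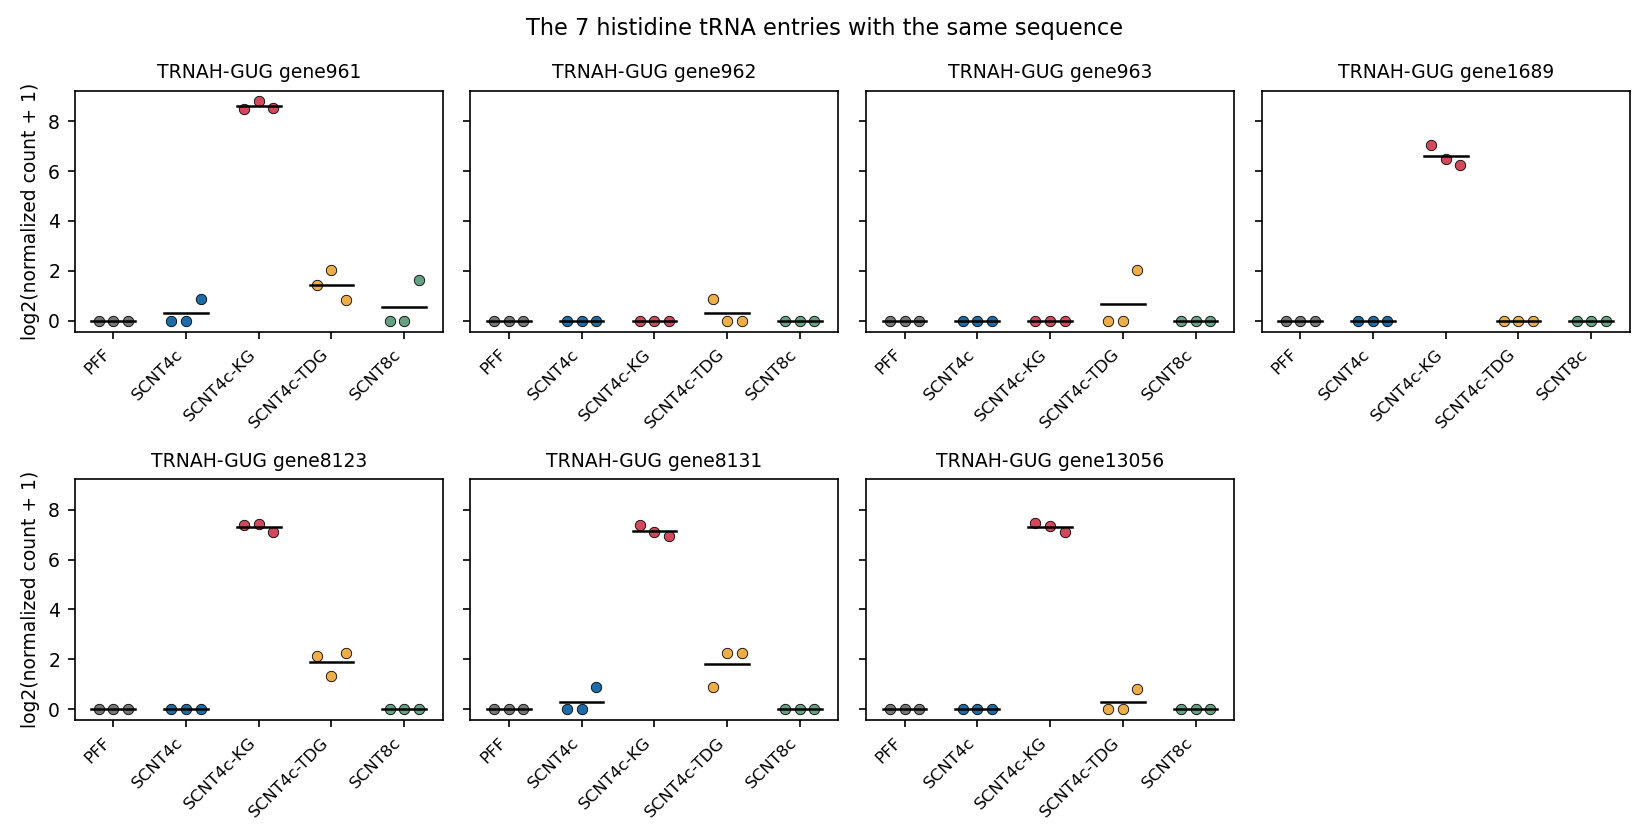
Normalized counts of the 7 TRNAH-GUG entries, as log2(normalized count + 1) on the y axis, in the 5 groups on the x axis. Each point is a library and each line is the mean of the 3 points. The SCNT4c-KG libraries stand above all others in 5 panels, and in the panels of gene962 and gene963 they are at 0.

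Across the whole table, 37.2% of the 18942 features tested changed between SCNT4c-KG and SCNT4c, with 17.6% higher and 19.6% lower. Of the 161 members, 7 had a mean of at least 10 over the embryo libraries and were tested, and 6 of these 7 were higher and 0 lower in SCNT4c-KG. None of these 6, the 5 histidine entries and TRNAG-UCC gene20054, would have entered the test without their values in SCNT4c-KG. Their number and their calls are thus a description and no support. A feature was called changed with a Benjamini-Hochberg adjusted p under 0.05 in limma, which gave all adjusted p-values below unless another tool is named, and a fold change above 2, and the median log2 fold change of all features was -0.30. The log2 fold change (log2 FC) of gene961 was 8.32 (SE 0.91, adjusted p = 7.45e-06), from 829 reads in SCNT4c-KG against 1 in SCNT4c. Those of the other 4 copies were 7.31 for gene8123, 7.32 for gene13056, 6.85 for gene8131 and 6.60 for gene1689, with limma adjusted p-values of 1.89e-05 to 7.64e-05. These values are on the log2(value + 1) scale, which understates the change of low values. Against 3 reads over the SCNT4c group, the mean of gene8123 was at least 191-fold higher, that of gene13056 at least 192-fold and that of gene1689 at least 117-fold. For gene8131, with 1 read in SCNT4c, the ratio of means was 508, with a 95% interval of 90.4 to 20115 that covers counting error only. All 3 SCNT4c-KG libraries were above all 3 SCNT4c libraries for each of these 5 copies, which held for 53.9% of features tested in 1 direction or the other. With 3 against 3 libraries an exact two-sided permutation test cannot go below p = 0.1.

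SCNT4c-TDG embryos did not share this level. Between SCNT4c-TDG and SCNT4c-KG, 16.2% of features changed (7.07% higher, 9.13% lower in SCNT4c-TDG), and 6 of the 7 tested members were lower, the same 6 that were higher in SCNT4c-KG against SCNT4c and entered the test only with its high values. The comparisons share the SCNT4c-KG libraries, and between these groups 44.4% of features did not overlap. The log2 fold changes of the 5 copies in SCNT4c-TDG against SCNT4c-KG lay between -7.19 (gene961, SE 0.91, adjusted p = 0.000159) and -5.34 (gene8131, adjusted p = 0.00127). In SCNT4c-TDG 6 of the 7 copies had reads. The values there were 3.34, 1.53 and 3.83 for gene8123 and 0.836, 3.84 and 3.83 for gene8131. The SCNT4c libraries were at 0 for gene8123, so the groups did not overlap for this copy (58.4% of features did not). For gene8131 the highest SCNT4c library, at 0.830, and the lowest SCNT4c-TDG library, at 0.836, had 1 read each and differ only by the library factor. The log2 fold changes of 1.91 (gene8123, adjusted p = 0.106) and 1.52 (gene8131, adjusted p = 0.212) did not pass the test. For gene961, with 7 reads and a mean of 1.84 in SCNT4c-TDG, the groups overlapped (log2 FC 1.13, adjusted p = 0.354), and gene13056 had 1 read (log2 FC 0.27, adjusted p = 0.841) and also overlapped. On the recovered reads gene8123 did pass in edgeR, at a log2 fold change of 4.80, and both copies passed in DESeq2, at 4.53 and 3.56.

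Values of neighbours are given for 2 of the 5 copies, gene8131, which shared its locus with other features, and gene13056, which had a gene other than a tRNA gene within 5 kb. LOC106510173, whose intron holds gene8131, had means of 6.03 in SCNT4c and 3.51 in SCNT4c-KG, below the level for a test. Of the other tRNA entries at that locus, TRNAG-UCC was at 0 in all 5 groups. TRNAK-CUU had a mean of 2.96 (SD 5.13) in SCNT4c-KG, all of it from a single library. It was at 0.277 in SCNT8c and at 0 in SCNT4c and SCNT4c-TDG. LOC110261659, the nearest gene to gene13056, had means of 14.3 in SCNT4c and 5.77 in SCNT4c-KG. The strand setting of the counting is not given in the sources used here, so reads from a tRNA gene and from a transcript across it on the other strand cannot be told apart.

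Without the histidine copies, the remaining 154 members held 1990 reads over the 15 libraries. In reads per 1000000 counted reads (RPM) they reached 11.2 ± 2.39 (SD, n = 3) in SCNT4c, 10.2 ± 1.74 in SCNT4c-KG, 6.67 ± 3.35 in SCNT4c-TDG, 4.62 ± 1.15 in SCNT8c and 3.23 ± 0.751 in PFF. The SCNT4c libraries were at 12.4, 12.7 and 8.42, above all PFF and SCNT8c libraries, and overlapped with SCNT4c-KG (8.66, 9.94 and 12.1). SCNT4c-TDG replicate 1, at 10.5, stood apart from replicates 2 and 3, at 4.50 and 4.97. The RPM falls both with fewer tRNA reads and with more RNA of other kinds, and in pools of embryos fewer cells of a type and less RNA per cell cannot be told apart.

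**Figure D2:**
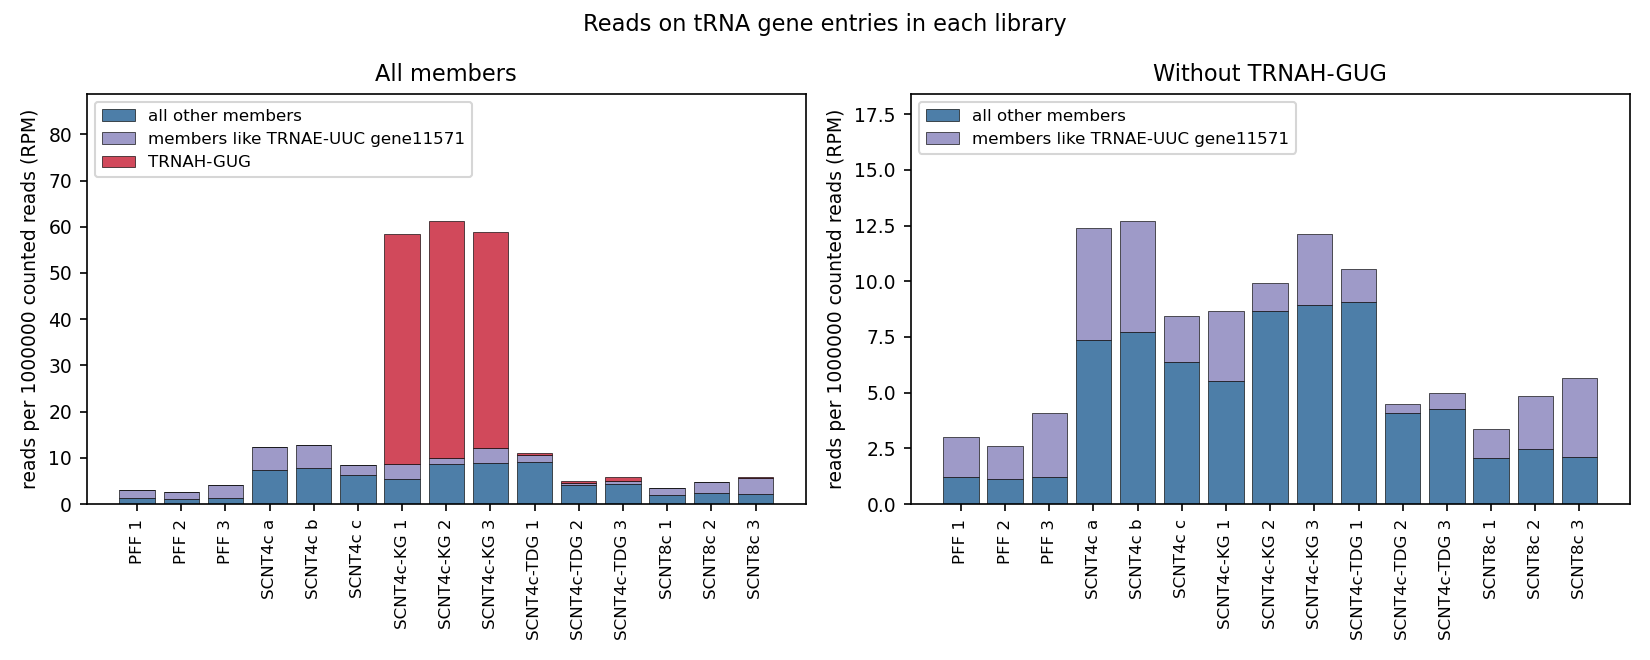
Reads on tRNA gene entries in RPM (y axis) in each of the 15 libraries (x axis), with TRNAH-GUG on the left and without it on the right; colors separate TRNAH-GUG, members at least 75% like TRNAE-UUC gene11571, and all others. TRNAH-GUG reaches 46.8 to 51.3 RPM in SCNT4c-KG and at most 0.820 in every other library.

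The members covered all 20 amino acids and 43 of 47 anticodons. By amino acid, histidine had 2034 reads, glycine 369, glutamate 326, arginine 158, aspartate 155, lysine 140 and serine 138. All 7 histidine entries were members, against 21 of 66 for glutamate and 5 of 30 for leucine. Of the reads outside histidine, glutamate entries held 44.1% in PFF and 36.8% in SCNT8c but 6.46% in SCNT4c. Glycine entries held 23.9% in SCNT4c, 23.7% in SCNT4c-KG and 4.30% in SCNT4c-TDG, and lysine entries held 17.5% in SCNT4c-TDG and 3.64% in PFF. These shares rest on 220 to 727 reads a group and are given without a test. Single entries carried several of them: gene12095 held 111 of the 174 glycine reads in SCNT4c and gene20054 75 of the 98 in SCNT4c-KG, so the near-equal glycine shares came from different loci. TRNAE-UUC gene11571 held 60 of the 97 glutamate reads in PFF and 56 of the 95 in SCNT8c, and TRNAK-UUU gene24912, chosen after its values were seen, 59 of the 65 lysine reads in SCNT4c-TDG.

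Most members were rarely seen. The median member had 4 reads over all libraries, 59 had at most 3, and 64 were above 0 in a single library. Of the 50 members with at least 10 reads, 23 were above 0 in 5 or more libraries and 1, TRNAE-UUC gene11571, in all 15. For 18 of these 50, a single library held more than 50% of the reads. For example, TRNAR-UCG gene12995 had 19 of its 22 reads in SCNT4c library b and TRNAI-AAU gene13079 had 13 of its 14 in SCNT4c-KG replicate 2, both chosen after their values were seen. The cDNA was amplified by PCR without molecular identifiers, so such reads need not be separate molecules.

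By position, 154 of the 161 members could be placed on a single annotated tRNA gene. Of these, 114 lay between genes (74.0%), 40 in an intron (26.0%) and 0 in an exon. Among the placed entries without a read, 218 lay between genes, 38 in introns and 20 in exons. Hence 40 of 78 intronic entries and 0 of 20 exonic entries had a read. HTSeq can leave out a read that overlaps 2 features, and its setting is not given, so the part of this step in the exonic entries was not tested. The intronic members were on the strand of their host gene in 20 cases, on the other strand in 19 and overlapped hosts on both strands in 1. Chromosome 7, which holds the largest cluster, had 143 entries and 49 members.

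Many of the intronic entries had similar sequences. The 3 intronic entries of this kind with the highest means were annotated to 3 different amino acids, yet are close copies of each other, as shown with the anticodon in capitals. A commonly copied glycine tRNA sequence follows for comparison.
TRNAE-UUC gene11571, chr6:68631910-68631981, plus strand, intron of PARK7: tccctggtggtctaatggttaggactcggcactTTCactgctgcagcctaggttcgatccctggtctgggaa
TRNAG-UCC gene12095, chr6:97427315-97427386, minus strand, intron of GNAL: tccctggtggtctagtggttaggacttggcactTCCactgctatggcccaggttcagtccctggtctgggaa
TRNAD-GUC gene18907, chr12:4844490-4844561, plus strand, intron of MXRA7: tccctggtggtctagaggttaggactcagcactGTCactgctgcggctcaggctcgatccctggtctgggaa
TRNAG-UCC gene20054, chr12:53421574-53421645, plus strand, intron of AURKB on the other strand, 10 identical copies annotated: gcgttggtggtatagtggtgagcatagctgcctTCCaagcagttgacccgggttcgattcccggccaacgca

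Likeness was measured as the percent of bases left unchanged by the fewest edits that turn one sequence into the other. It was 87.5% between gene11571 and gene12095, 88.9% between gene11571 and gene18907, and 84.7% between gene12095 and gene18907. The glycine-annotated gene12095 was 62.2% identical to the commonest TRNAG-UCC sequence, and the aspartate-annotated gene18907 was 61.6% identical to the commonest TRNAD-GUC sequence.

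Among the 430 placed entries, 76 were at least 75% like gene11571, a limit chosen after the values were seen that falls in a gap between 73.6% and 79.2%. They carried 7 anticodon symbols, among them TRNAE-UUC (49 entries, the most frequent) and TRNAD-GUC (7 entries), and 65 of the 76 had a sequence found once among annotated tRNA genes. Of the 76, 31 were members (40.8%), close to the 34.7% of the other 354. However, 22 of these 31 lay in introns (71.0%), against 18 of 123 members (14.6%) outside the group. Over all entries the same contrast was 44 of 76 (57.9%) against 9.60%. Inside the group 22 of 44 intronic and 9 of 31 intergenic entries were members, and outside it 18 of 34 and 105 of 301. The members in the group also lacked a terminator more often. A run of 4 T began within 40 bases downstream in 4 of 31 (12.9%), against 111 of 123 (90.2%) of the other members. The same difference was seen over all entries, with 10.5% and 89.5%. The A box (T, any base, G, any 3 bases, AG, any 2 bases, G) and the B box, both read on the strand of the gene, were present together in 67.7% of the 31 members and in 70.7% of the others. In windows of the same length 1000 bases away from the placed members, searched on both strands, the pair occurred in 0.649%. A match is a description of letters and not of a working promoter.

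**Figure D3:**
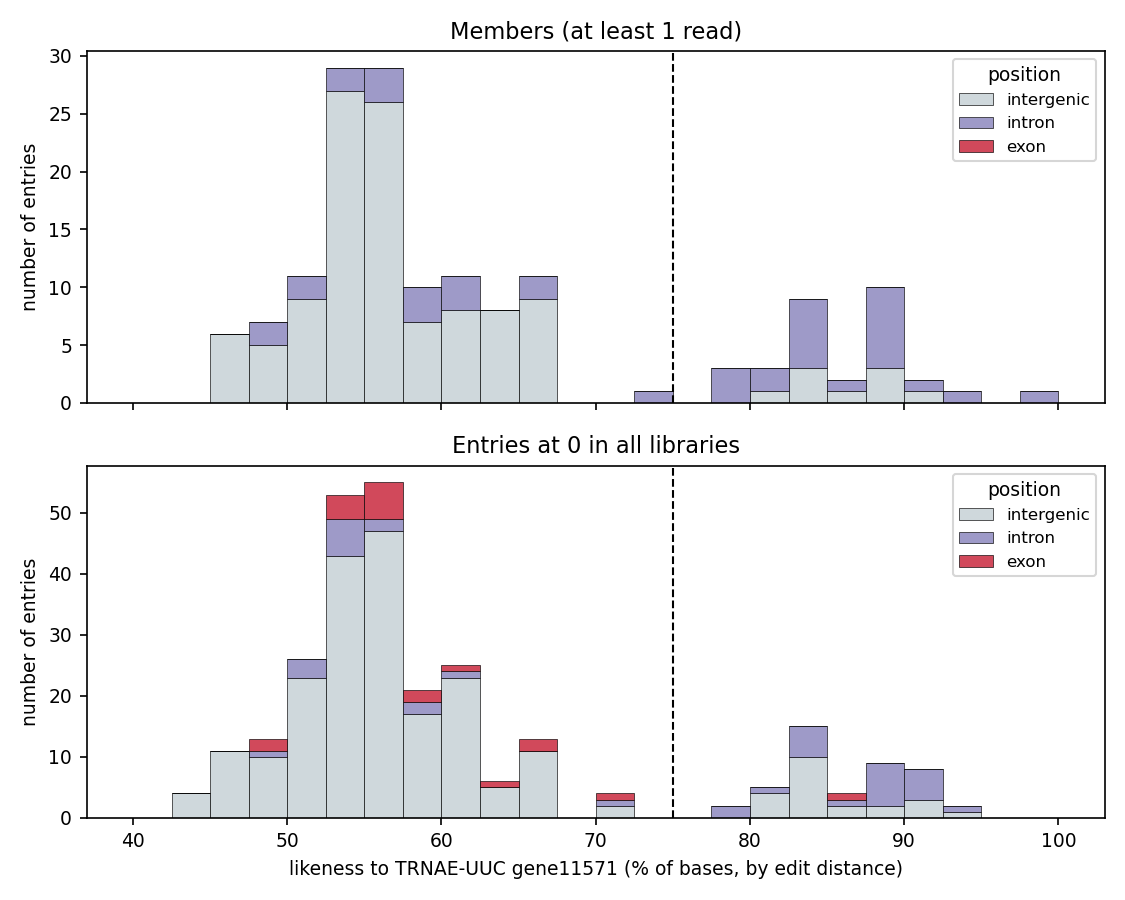
Number of placed tRNA gene entries (y axis) by likeness of their sequence to TRNAE-UUC gene11571 in percent (x axis), for members above and entries at 0 in all libraries below, with colors for the position relative to annotated genes. The dashed line is at 75%, and 22 of the 31 members to its right lie in introns.

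In PFF the members like gene11571 held 63.2% of the reads outside histidine and in SCNT8c 52.3%, against 35.9% in SCNT4c, 24.0% in SCNT4c-KG and 12.9% in SCNT4c-TDG. In RPM they were at 2.04 ± 0.711 (SD, n = 3) in PFF, 4.02 ± 1.70 in SCNT4c, 2.54 ± 1.07 in SCNT4c-KG, 0.864 ± 0.543 in SCNT4c-TDG and 2.42 ± 1.11 in SCNT8c. The other members without histidine were at 1.19 ± 0.0580 in PFF, 7.15 ± 0.705 in SCNT4c, 7.69 ± 1.90 in SCNT4c-KG, 5.80 ± 2.83 in SCNT4c-TDG and 2.20 ± 0.222 in SCNT8c. A few entries carried the group like gene11571, with 142 of its 682 reads on gene11571, 165 on gene12095 and 117 on gene18907. In SCNT4c, 111 of 261 reads were on gene12095 and 79 on gene18907, of which 66 in library a, and in PFF 60 of 139 were on gene11571 and 37 on gene18907. The PFF and SCNT8c libraries lay below every 4-cell library for these other members, but overlapped with 4-cell libraries for the members like gene11571.

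TRNAG-UCC gene12095 was found in untreated embryos. Its values were 30.8, 49.8 and 12.5 in SCNT4c, 18.0, 0 and 5.70 in SCNT4c-KG, 0 in all SCNT4c-TDG and PFF libraries, and 0.934, 1.66 and 38.0 in SCNT8c. All SCNT4c libraries were above all SCNT4c-TDG and PFF libraries. A lack of overlap with SCNT4c held for 58.4% of features tested in SCNT4c-TDG and 84.5% in PFF. In SCNT4c-TDG against SCNT4c, where 33.3% of features changed (15.7% higher, 17.6% lower), gene12095 was the only one of 7 tested members called, with a log2 fold change of -4.80 (SE 1.31, adjusted p = 0.0111). It would not have reached the minimum mean without its high values in SCNT4c, so the call is a description and no support. SCNT4c was at least 38.9-fold higher, against 3 reads over the SCNT4c-TDG group. Without SCNT4c library b its mean over the embryo libraries fell under 10, so it was not tested, and no member was called. The differences of SCNT4c-KG (-2.47, adjusted p = 0.148) and SCNT8c (-2.25, adjusted p = 0.267) from SCNT4c did not pass. Without SCNT8c replicate 3, the library at 38.0, the latter was -3.62 and passed.

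Other genes share this locus. GNAL, a G protein subunit gene that holds the entry in an intron on the same strand, had means of 34.5 in SCNT4c and 15.3 in SCNT4c-TDG (log2 FC -0.25, adjusted p = 0.871). CHMP1B, a subunit of the ESCRT machinery, fell from 6808 to 1755 (log2 FC -1.94, adjusted p = 5.41e-05) and was at 1497 in SCNT4c-KG and 6484 in SCNT8c. In PFF, where the entry was at 0, CHMP1B was at 2926. MPPE1, a phosphoesterase gene at the same locus, was at 38.1 in SCNT4c, 0.475 in SCNT4c-KG (log2 FC -4.82, adjusted p = 0.00111) and 22.4 in SCNT4c-TDG. The part of CHMP1B reads in the entry was not tested.

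TRNAE-UUC gene11571 was found mainly in fibroblasts and 8-cell embryos. Its values were 22.0, 24.2 and 27.4 in PFF, 1.58, 1.75 and 8.30 in SCNT4c, 1.63, 6.35 and 1.42 in SCNT4c-KG, 2.51, 0.767 and 0.765 in SCNT4c-TDG, and 4.67, 23.3 and 24.3 in SCNT8c. These rest on 60 reads in PFF and 56 in SCNT8c, and both groups overlapped. PFF and SCNT4c did not overlap, as was the case for 84.5% of features, and 78.2% of features changed between them (38.5% higher, 39.7% lower in PFF). Of 3 tested members, 1 was higher and 1 lower in PFF, but gene11571 reached the minimum mean only with its values in PFF and gene12095 only with those in SCNT4c, so this count is no support. The log2 fold change of gene11571 was 2.65 (SE 0.56, adjusted p = 0.00487), with a ratio of means of 6.35 (95% counting interval 3.50 to 12.3). It did not pass in edgeR (1.87) or DESeq2 (1.86), and over all settings it lay between 1.35 and 4.12. Most SCNT4c reads of gene11571 were in library c, at 8.30. PARK7, the redox protein gene around it on the same strand, was at 5438 in PFF and 2979 in SCNT4c, a log2 fold change of 0.89 (adjusted p = 0.00295) that did not reach 2-fold.

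The other member called against PFF was gene12095, with a log2 fold change of -4.80 in PFF (adjusted p = 0.000252) and SCNT4c at least 25.0-fold higher. TRNAD-GUC gene18907 showed how 1 library can set a mean. It was at 52.1, 6.12 and 4.98 in SCNT4c, 13.4, 3.82 and 27.4 in PFF, and at most 1.06 elsewhere, and the difference between PFF and SCNT4c was -0.06 (adjusted p = 0.957). Its host MXRA7 had means of 8350 in PFF and 712 in SCNT4c.

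TRNAG-UCC gene20054 differed from these entries in sequence, and it matched both boxes and had a T run 11 bases downstream. Its values were 37.6, 30.5 and 39.9 in SCNT4c-KG, 2.37, 3.50 and 4.15 in SCNT4c, 0, 0.767 and 3.06 in SCNT4c-TDG, 0.934, 0 and 6.34 in SCNT8c, and 0 in PFF. All SCNT4c-KG libraries were above all others. A lack of overlap, in 1 direction or the other, held for 53.9% of features tested against SCNT4c and 44.4% against SCNT4c-TDG. No such share was computed for SCNT4c-KG against SCNT8c or PFF. The log2 fold change in SCNT4c-KG against SCNT4c was 3.10 (SE 1.02, adjusted p = 0.0257), with a ratio of means of 10.8 (95% counting interval 5.81 to 21.7). It would not have reached the minimum mean without its high values in SCNT4c-KG, so this is given as a description. In SCNT4c-TDG against SCNT4c-KG it was -4.25 (adjusted p = 0.01). It lost its call in SCNT4c-KG against SCNT4c with a pseudocount of 0.1, in edgeR, and without SCNT4c library a or b, with adjusted p-values of up to 0.158, and without any 1 of the SCNT4c-KG replicates its mean fell under 10 and it was not tested. The call against SCNT4c-TDG was lost in edgeR and without SCNT4c-TDG replicate 1, where the log2 fold change was -3.78. Of the 10 placed copies with its sequence, 1 other had reads, all 10 of them in SCNT8c replicate 2.

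Within the cluster around gene20054, TRNAW-CCA gene20053 had means of 7.88 in SCNT4c-KG, 3.75 in SCNT8c and 0 in SCNT4c and SCNT4c-TDG, too low for a test, and the other 6 tRNA entries of the locus were at 0. Of the neighbouring genes, TMEM107, a protein of the ciliary transition zone, was at 66.9 in SCNT4c-KG and 27.0 in SCNT4c (log2 FC 1.26, adjusted p = 0.0917), and AURKB, a mitotic kinase, was at 25.9 and 19.0 (0.13, adjusted p = 0.923). The assembled feature MSTRG.108825, the most abundant of the locus, was at 159 in SCNT4c-KG and 298 in SCNT4c (-0.87, adjusted p = 0.105).

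**Figure D4:**
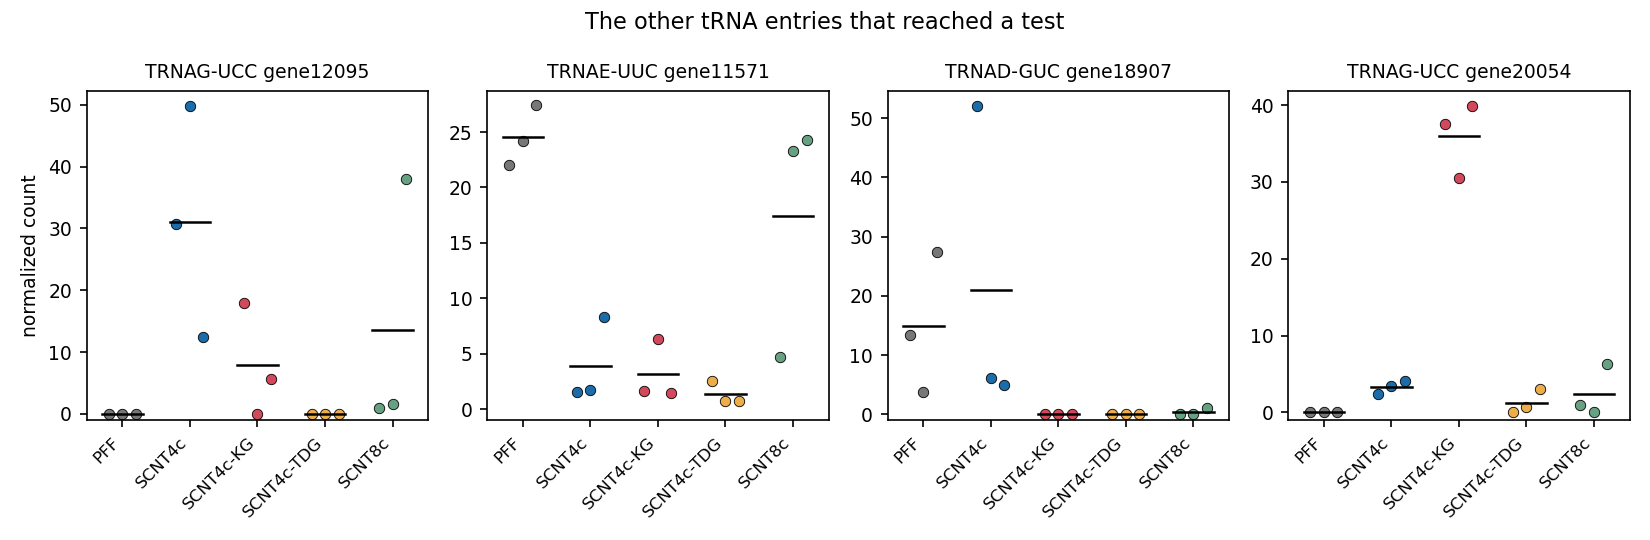
Normalized counts (y axis, a separate scale in each panel) of TRNAG-UCC gene12095, TRNAE-UUC gene11571, TRNAD-GUC gene18907 and TRNAG-UCC gene20054 in the 5 groups (x axis). Points are libraries and lines are means of 3; gene20054 is at 30.5 to 39.9 in SCNT4c-KG and at most 6.34 elsewhere, and gene11571 is at 22.0 to 27.4 in PFF.

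The 8-cell embryos gave no call. Between SCNT8c and SCNT4c 5.79% of features changed (2.62% higher, 3.16% lower), and limma called 0 of the 7 tested members, with 0 at an unadjusted p under 0.05. Neither edgeR nor DESeq2 called any of them. Among these 7 were the 5 histidine copies, which entered only through SCNT4c-KG. Their means were at most 0.704 in SCNT8c and SCNT4c, so the lack of a call says nothing about them. Leaving out SCNT8c replicate 3 gave 1 call, gene12095.

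A total of 138 of the 448 entries shared a locus with another feature, and 52 of these were members (37.7%), against 109 of the 310 that stood alone (35.2%). The shared members held 80.5% of the reads outside histidine in PFF and 69.4% in SCNT8c, but 42.0% in SCNT4c, 47.5% in SCNT4c-KG and 32.8% in SCNT4c-TDG.

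Genes that make, process and charge tRNAs were counted in 5 lists, beside the shares of all features given above. In SCNT4c-KG against SCNT4c, 4 of 10 tested RNA polymerase III subunits were higher and 1 lower. POLR1C, a subunit shared with RNA polymerase I, went from 45.2 to 2699 (log2 FC 5.92, adjusted p = 3.53e-06), POLR3G from 3911 to 11907 and POLR3E from 96.2 to 258, whereas POLR3K fell from 19511 to 6639 (-1.60, adjusted p = 0.000337). In SCNT4c-TDG against SCNT4c, 3 were higher and 2 lower, and POLR3K fell to 2957. POLR1C was at 94.0 in SCNT4c-TDG and was lower than in SCNT4c-KG (-4.89, adjusted p = 0.00013). Of 9 tested genes of TFIIIA, TFIIIB and TFIIIC, with the repressor MAF1 among them, 1 was higher in SCNT4c-KG (GTF3C4, from 94.6 to 356) and 0 lower. In SCNT4c-TDG, 2 were higher and 1 lower, with BDP1 rising from 1036 to 4143. MAF1 itself was lower in SCNT4c-TDG than in SCNT4c-KG, at 210 and 679 (log2 FC -1.72, adjusted p = 0.0165).

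Genes of tRNA end processing, splicing and export had the highest median of the 5 lists in SCNT4c-KG against SCNT4c. Of 16 tested, 8 were higher and 0 lower, with a median log2 fold change of 1.42 where all features had -0.30. RPP30, a subunit of RNase P, which trims the 5′ end of tRNA precursors, rose from 15.5 to 2119.5 (log2 FC 7.19, adjusted p = 7.57e-08). It was also higher in SCNT4c-TDG than in SCNT4c, at 1583 (6.78, adjusted p = 3.28e-07). Between SCNT4c-TDG and SCNT4c-KG it was not called (-0.41, adjusted p = 0.631). SSB, the La protein that binds the 3′ end of new polymerase III transcripts, rose from 6764 to 58288 (3.11, adjusted p = 9.24e-08) and was lower in SCNT4c-TDG than in SCNT4c-KG, at 25276 (-1.21, adjusted p = 0.00213). In SCNT4c-TDG against SCNT4c 7 of 16 were higher and 0 lower, with a median of 1.03.

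Of 31 genes of tRNA modification, 9 were higher and 4 lower in SCNT4c-KG and 9 higher and 5 lower in SCNT4c-TDG, each against SCNT4c. THG1L, the histidine tRNA guanylyltransferase, was at 29.2 in SCNT4c, 1369 in SCNT4c-KG (log2 FC 5.50, adjusted p = 7.76e-08) and 438 in SCNT4c-TDG (3.86, adjusted p = 4.17e-06). Of 16 genes for synthetases and the accessory proteins AIMP1 and EEF1E1 of their complex, 5 were higher and 3 lower in SCNT4c-KG, and 3 higher and 2 lower in SCNT4c-TDG, and EEF1E1 was among those higher in both. HARS, which charges histidine tRNA, was at 588 in SCNT4c, 1686 in SCNT4c-KG, 536 in SCNT4c-TDG and 1697 in SCNT8c. It was lower in SCNT4c-TDG than in SCNT4c-KG (-1.64, adjusted p = 0.0124) and higher in SCNT8c than in SCNT4c (1.62, adjusted p = 0.0356). RARS, for arginine, rose from 0.277 in SCNT4c to 153 in SCNT4c-KG and 173 in SCNT4c-TDG.

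In PFF against SCNT4c, 11 of the 16 synthetase and accessory genes and 7 of 9 genes of TFIIIA, TFIIIB, TFIIIC and MAF1 were higher and 0 lower, and these 7 include the repressor MAF1 and GTF3A, which is TFIIIA and serves the 5S rRNA genes, whereas 1 of 10 polymerase III subunits was higher and 5 lower. GARS, the glycine synthetase, was at 32424 in PFF and 213 in SCNT4c (log2 FC 7.27, adjusted p = 8.26e-07). Between SCNT8c and SCNT4c, 2 processing genes, 2 modification genes and 1 synthetase were higher, and 0 genes of the 5 lists were lower.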

How the data were processed

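RNA-seq values of 15 libraries were taken from 1 table. According to the methods and the submitters' processing notes, the authors amplified cDNA from total RNA with a SMARTer kit, called bases with CASAVA 1.8.2, trimmed reads with Trimmomatic 0.39, kept reads that STAR 2.5.3a mapped uniquely to Sscrofa11.1, added StringTie 2.1.2 transcripts and counted by HTSeq 0.9.1. The deposited values are a normalized signal, read counts scaled by 1 factor per library, whose source is not given in the sources used here. They came out as whole multiples of the value of 1 read for 100% of values (tolerance 0.001), which gave back the reads. After removal of 241 repeated IDs, 43294 features remained, and 0 value columns were left out.

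Tests covered features whose mean over a fit reached 10, on log2(value + 1), with limma 3.58.1 (empirical Bayes with an intensity trend), in 1 fit of the 12 embryo libraries, and for PFF against SCNT4c in a fit of those 6. P-values were adjusted by Benjamini-Hochberg over all features tested. The p-values rest on a spread between libraries that was pooled over the groups of a fit and moderated over all features. For gene1689, at 0 in both SCNT8c and SCNT4c, the SE in that comparison was still 0.93. Whether the libraries came from separate cultures or transfer sessions is not given. In simulated counts the fold changes stayed within the limit set for bias and few calls were wrong, but many changed features were missed. Only features with many reads were changed there, at folds far below those of the histidine copies. The check thus does not cover entries near 0 in a group. The pass limit of that check was reset, after a first limit on the share recovered had not been met, to limits on bias and wrong calls. Alternatives used edgeR 4.0.16 and DESeq2 1.42.0 on the recovered reads, other pseudocounts, minimums and scalings, and each library left out. Replicate numbers of SCNT4c-KG and SCNT4c-TDG were checked for pairing. Same-numbered libraries deviated from their group means with correlations of -0.00205 to 0.0246, so they were not treated as pairs.

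Entries were placed on the RefSeq annotation of Sscrofa11.1, the build of the table, where a locus held a single tRNA gene of that symbol. This placed 430 of 448, and 18 were left unplaced. A further 62 annotated tRNA genes lie on scaffolds and were not used here. Sequences are from the same assembly. Entries named are the 8 with the highest mean, up to 5 called rises and falls in each comparison without overlap of replicates, their copies, and genes of their locus; of each gene list, at most 4 genes with the largest called change in a comparison. TRNAD-GUC gene18907, TRNAR-UCG gene12995, TRNAI-AAU gene13079, TRNAK-UUU gene24912 and TRNAW-CCA gene20053 were chosen after their values were seen, as was the likeness group. The members and gene lists were chosen with earlier results of these data known. Fold bounds use 3 reads over the group. Scripts ran in R 4.3.3 and Python 3.11.15 with pandas 2.3.3, numpy 2.4.6, Biopython 1.88 and matplotlib 3.10.9.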

Additional observations from a re-analysis of the deposited data

How the results depend on the processing

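The count of tRNA entries called depended mainly on which entries were tested. With no minimum mean, where 147 members were tested in embryos and 112 in the PFF fit, limma called 12 in SCNT4c-KG (8 higher, 4 lower), 4 in SCNT4c-TDG (0 higher), 2 in SCNT8c (0 higher) and 14 in PFF (4 higher, 10 lower), each against SCNT4c, and 8 in SCNT4c-TDG against SCNT4c-KG (0 higher). The features called in all were 7176, 6299, 601 and 2904 of 35910 for SCNT4c-KG, SCNT4c-TDG and SCNT8c against SCNT4c and SCNT4c-TDG against SCNT4c-KG, and 18347 of 33296 for PFF. With a minimum mean of 50, which left 1 member in the embryo fit and 0 in the PFF fit, it called 1 in SCNT4c-KG against SCNT4c, 1 in SCNT4c-TDG against SCNT4c-KG, 0 in SCNT4c-TDG against SCNT4c and, with 0 members tested, 0 in PFF against SCNT4c. In SCNT4c-TDG against SCNT4c, the 1 call became 2 with a pseudocount of 0.1, 2 in edgeR, 3 in DESeq2 and 2 in a fit of those groups alone, and the added calls were not tested for a cause. In PFF against SCNT4c, the 2 calls became 1 in edgeR and 1 in DESeq2. Counting only entries with at least 10 reads, 50 of the 161 members remained.

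With each library left out, the calls were 5 to 6 in SCNT4c-KG against SCNT4c and 5 to 6 in SCNT4c-TDG against SCNT4c-KG. They were 0 to 1 in SCNT4c-TDG against SCNT4c, with 0 without SCNT4c library b, 0 to 1 in SCNT8c against SCNT4c, with 1 without SCNT8c replicate 3, and 1 to 2 in PFF against SCNT4c, with 1 without SCNT4c library b. The replicate block, possible for SCNT4c-TDG against SCNT4c-KG alone and added after the data were seen, gave 6 calls as before. For comparisons with SCNT4c no paired analysis was possible because its libraries carry no usable number.

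Of 336 values of named entries under the alternatives, 321 kept direction and side of the threshold, 8 lost their call, 6 gained one and 1 turned, TRNAG-UCC gene20054 in SCNT8c against SCNT4c, at 0.15 with quantile normalization. Entries with at most 3 reads in both groups were left out of this count. The 5 histidine copies kept their calls in SCNT4c-KG against SCNT4c and in SCNT4c-TDG against SCNT4c-KG under every alternative that tested them, with log2 fold changes of 3.41 to 10.9 in the former. Where a minimum mean applied, they reached it only through SCNT4c-KG, so the kept calls are a description and no support.

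Depth limits the rest: 59 members rest on at most 3 reads, 3 reads correspond to values of 2.30 to 4.90 in a library, and reads that map to identical copies were not counted, so a 0 is not absence of the tRNA.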
